A study of Mus musculus with 75 samples.

Results

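Interleukin-6 (IL-6) family cytokines, alarmins and their receptors were followed at the level of RNA and promoter chromatin in mouse skin fibroblasts. The genes are 10 of the 24984 that were counted: the IL-6 family cytokines Il6, Lif and Il11, the receptor subunits Il6st and Osmr, the alarmins Il33 and Tslp, the receptors Il1rl1 and Il1r1, and the macrophage growth factor Csf1. They were listed by name. All cells were skin fibroblasts. Those of 2-month-old mice were C57BL/6, and the paper names no strain for the newborn mice that it also used. For replicative senescence, fibroblasts of 2-month-old female mice were passaged untreated, and RNA was sequenced at P1, P3, P5 and P7 with 4 libraries at each passage. ATAC-seq, which marks open chromatin, was done at the same passages with 4 samples at P1 and 3 at each later passage. The manipulations used lentiviral vectors in primary fibroblasts of newborn or 2-month-old mice, and the labels do not say which age each library had. E2f4 was overexpressed from a doxycycline-induced vector in pre-senescent P4 cells (2 libraries), and the control cells carried an EGFP vector under the same conditions (2 libraries). E2f4 was knocked down with hairpin sh1 in proliferating P3 cells (3 libraries against 3 of a non-targeting hairpin). Tead1 was knocked down with hairpins sh3 and sh4, and Atf3 with sh5 and sh6 in pre-senescent cells, with 3 libraries for each hairpin and 3 for the non-targeting hairpin of each experiment. The labels do not name separate mice or cultures behind the libraries, so the p-values measure only the spread between these libraries.

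Cytokines of the IL-6 family signal through a shared receptor chain, gp130, which is the product of Il6st. IL-6 and IL-11 bring in their own alpha receptors, while LIF and oncostatin M pair gp130 with LIFR or with the oncostatin M receptor encoded by Osmr, and all of them act through JAK kinases and STAT3. IL-33 and TSLP are alarmins, cytokines that barrier and stromal cells release on damage. IL-33 binds ST2, the product of Il1rl1, which is a close relative of the IL-1 receptor encoded by Il1r1. IL-6 is among the best known factors that senescent fibroblasts secrete.

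Total counts on genes ranged from 9147324 to 27552949 over the 44 RNA libraries, and from 13430229 to 15725823 over the 16 passage libraries. The summed level of 8 fibroblast markers, led by collagens, was 19200 to 21500 CPM (counts scaled to the library total after TMM normalization) at P1 and 31600 to 33900 CPM at P7. Among the passage libraries, the summed macrophage, keratinocyte, endothelial and adipocyte markers were highest at P1. Csf1r, one of the macrophage markers, was an exception, with a mean at P7 slightly above that at P1. The 9 macrophage markers summed to 330 to 506 CPM at P1 and 33.9 to 52.2 CPM at P7, and the 8 keratinocyte markers to 57.5 to 364 CPM at P1 and 4.73 to 7.87 CPM at P7. The 6 endothelial markers summed to 151 to 160 CPM at P1 and 10.8 to 13.9 CPM at P7, the 5 adipocyte markers to 44.6 to 58.4 CPM and 1.19 to 5.92 CPM, and the 7 muscle markers to 123 to 190 CPM and 38.8 to 110 CPM. Mast cell markers summed to at most 3.55 CPM at P1, with Fcer1a at 0, and Cd3e, which defines T cells, was at 0 in every passage group. In these bulk libraries, fewer cells of one type and less RNA per cell cannot be told apart.

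The promoters of the members differ in letters and in openness, and those that the results below turn on are shown here as the 250 bases before the start site (RefSeq, GRCm38.p6, written 5′ to 3′ on the strand of the gene). RefSeq promoter sequences were searched for 13 start sites of 9 members, and neither Tslp nor the second start site of Lif was among them. Capitals mark the letters of 7 motifs that were searched on both strands: NF-kB by its usual 10-base consensus, AP-1 (TGAGTCA or TGACTCA), the cAMP response element (TGACGTCA), C/EBP (TTGCNNAA), STAT (TTCNNNGAA), TEAD (GGAATG) and E2F (any of TTCCCGC and TTCGCGC and TTGCCGC and TTGGCGC). Of 32841 mouse promoter windows, 7.25% hold the NF-kB letters, 4.46% AP-1, 1.55% the cAMP element, 9.57% C/EBP, 7.02% STAT, 12.6% TEAD and 7.89% E2F. Positions are counted back from -1, the base before the start site.
Il6, chr5:30012864-30013113, plus strand: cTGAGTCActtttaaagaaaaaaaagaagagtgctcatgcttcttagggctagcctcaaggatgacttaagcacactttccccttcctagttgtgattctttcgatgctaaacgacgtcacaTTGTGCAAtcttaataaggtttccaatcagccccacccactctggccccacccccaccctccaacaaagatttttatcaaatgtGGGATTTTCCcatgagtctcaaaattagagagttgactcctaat
Il11, chr7:4778142-4778391, minus strand: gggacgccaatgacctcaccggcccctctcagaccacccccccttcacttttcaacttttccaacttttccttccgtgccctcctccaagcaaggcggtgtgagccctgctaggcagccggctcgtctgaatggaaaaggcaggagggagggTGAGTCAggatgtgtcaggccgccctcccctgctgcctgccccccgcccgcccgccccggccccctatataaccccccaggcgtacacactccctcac
Il33 first start site, chr19:29924863-29925112, plus strand: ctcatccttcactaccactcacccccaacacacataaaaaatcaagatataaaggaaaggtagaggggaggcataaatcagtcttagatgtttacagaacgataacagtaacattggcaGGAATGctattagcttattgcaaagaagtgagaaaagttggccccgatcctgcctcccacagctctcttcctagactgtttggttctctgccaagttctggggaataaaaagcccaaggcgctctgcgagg
Il33 second start site, chr19:29945540-29945789, plus strand: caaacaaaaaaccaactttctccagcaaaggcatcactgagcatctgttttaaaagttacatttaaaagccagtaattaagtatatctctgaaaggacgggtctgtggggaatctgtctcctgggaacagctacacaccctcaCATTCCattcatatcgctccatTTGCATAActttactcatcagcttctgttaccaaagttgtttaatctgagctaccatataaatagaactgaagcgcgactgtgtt
Il1rl1 first start site, chr1:40429320-40429569, plus strand: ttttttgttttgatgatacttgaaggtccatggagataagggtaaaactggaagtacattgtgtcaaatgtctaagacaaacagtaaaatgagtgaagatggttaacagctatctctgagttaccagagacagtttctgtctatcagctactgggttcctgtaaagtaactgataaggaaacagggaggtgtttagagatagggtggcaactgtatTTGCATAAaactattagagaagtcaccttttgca
Il1rl1 second start site, chr1:40439379-40439628, plus strand: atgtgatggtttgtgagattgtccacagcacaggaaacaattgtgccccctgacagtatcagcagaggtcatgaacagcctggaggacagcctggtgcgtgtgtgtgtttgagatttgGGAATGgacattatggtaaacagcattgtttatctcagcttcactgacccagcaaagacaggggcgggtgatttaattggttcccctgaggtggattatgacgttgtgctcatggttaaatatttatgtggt
Csf1, chr3:107760470-107760719, minus strand: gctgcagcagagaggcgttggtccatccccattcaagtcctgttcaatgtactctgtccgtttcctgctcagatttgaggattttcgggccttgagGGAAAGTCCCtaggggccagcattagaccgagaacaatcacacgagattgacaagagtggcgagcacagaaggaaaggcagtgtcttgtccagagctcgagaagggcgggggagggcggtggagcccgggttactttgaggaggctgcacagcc
Osmr, chr15:6874314-6874563, minus strand: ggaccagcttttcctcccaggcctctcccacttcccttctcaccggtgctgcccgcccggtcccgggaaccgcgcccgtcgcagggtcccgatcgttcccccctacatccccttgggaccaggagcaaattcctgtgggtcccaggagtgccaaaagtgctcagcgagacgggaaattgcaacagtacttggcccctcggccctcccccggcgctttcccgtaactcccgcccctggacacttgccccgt

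The Il6 window held 3 of these motifs: AP-1 letters from -249 to -243, C/EBP letters on the minus strand from -128 to -121 and NF-kB letters from -44 to -35. AP-1, C/EBP and NF-kB are the factor families best known at the IL-6 promoter. The Il11 window held AP-1 letters from -98 to -92, and the Csf1 window NF-kB letters on the minus strand from -154 to -145. The first Lif window held AP-1 and NF-kB letters, but no sample had a peak over it. The second start site of Lif, which had a peak in every sample, was not searched. TEAD letters stood in both Il33 windows and before the second start site of Il1rl1, and C/EBP letters before the second start site of Il33 and the first of Il1rl1 and of Il1r1. Before the second start site of Il1r1, NF-kB letters overlapped with TEAD letters. The Osmr window, which is rich in CpG (18 CpG in 250 bases), held none of the 7, and neither did that of Il6st (26 CpG). No searched window of a member held the E2F, STAT or cAMP element letters, which says only that these letters are not in the 250 bases searched.

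Over the passages to replicative senescence, the members went in different directions. From P1 to P7, the IL-6 family cytokines Il6 and Il11 rose, the alarmins Il33 and Tslp fell, and the other 6 members changed by less than 2-fold. A gene was called changed when its adjusted p in edgeR's quasi-likelihood test (Benjamini-Hochberg over all genes tested) was under 0.05 and its fold change over 2. By this rule 4 of the 10 members were called between P7 and P1, where 21.4% of all genes tested were called.

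**Figure D1:**
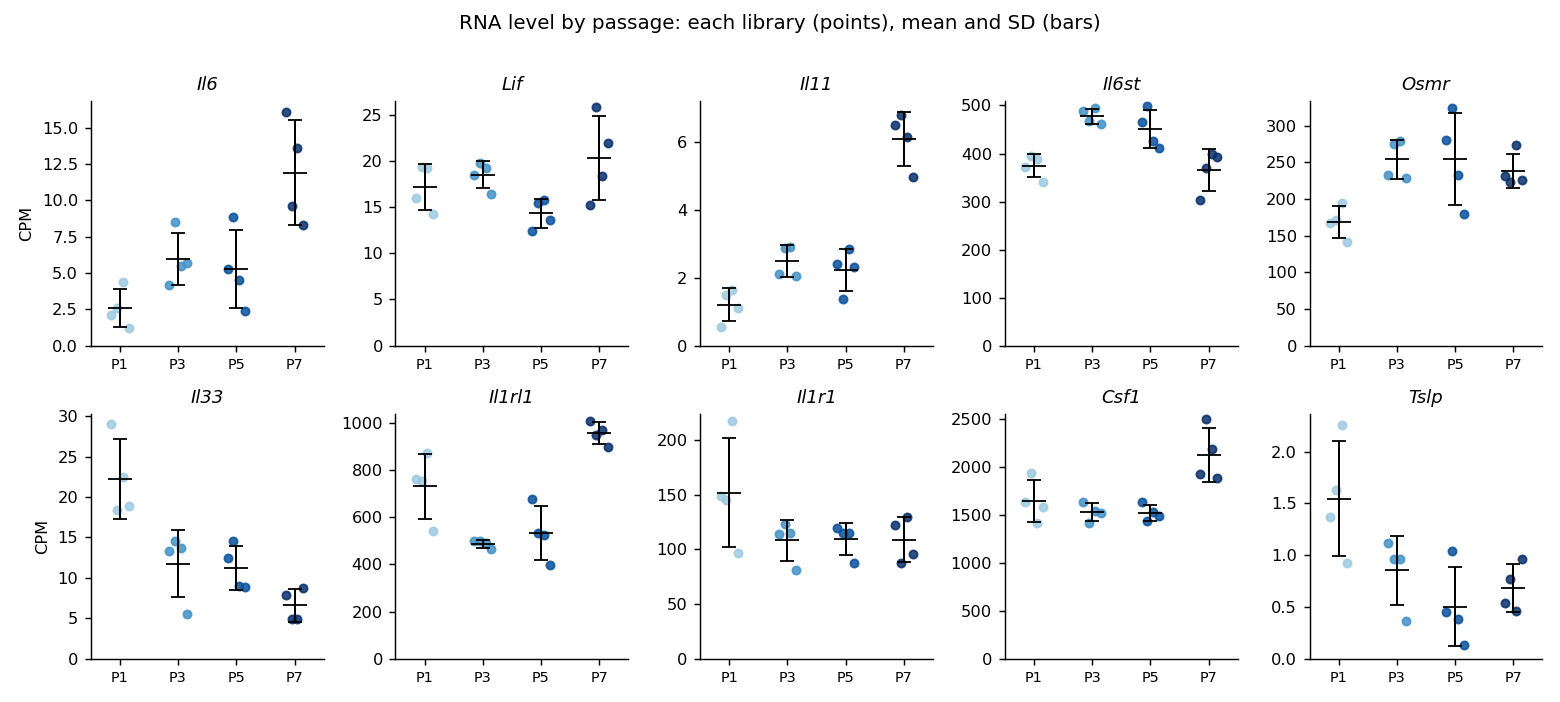
RNA level (CPM, linear axes from 0) of each member in the 4 libraries of each passage. Points are libraries and bars the mean with its SD; Il6 and Il11 are highest at P7, where all 4 libraries lie above all 4 of P1, while Il33 is highest at P1.

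Il6, the founding cytokine of the family, had 2.12, 2.58, 4.38 and 1.24 CPM in the 4 P1 libraries. It reached 4.21, 8.51, 5.48 and 5.71 CPM at P3, 5.30, 8.85, 4.52 and 2.38 CPM at P5, and 16.1, 9.65, 13.6 and 8.31 CPM at P7. Every P7 library was above every P1 library, whereas P3 and P5 overlapped with P1 and with each other. Il6 rose from P1 to P7 by 2.21 on the log2 scale (SE 0.36, 4.63-fold, adjusted p = 2.5e-05 by edgeR). It also rose from P1 to P3 (log2 1.22, SE 0.37, adjusted p = 0.016), where 2 of 10 members and 8.98% of all genes were called, although this call was lost without P1 replicate 4 (log2 0.98, adjusted p = 0.0541) or P3 replicate 2 (adjusted p = 0.0656). Between P3 and P7 the difference of 1.00 on the log2 scale (SE 0.33, adjusted p = 0.017) was 1.995-fold, just under the threshold, and passed it without P3 replicate 2 (log2 1.22) or P7 replicate 4 (log2 1.14), among other settings.

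Il11, a gp130 cytokine known for its part in fibrosis, started lower still, at 0.548, 1.495, 1.64 and 1.11 CPM in the P1 libraries (8 to 24 counts each). The P3 libraries had 2.10, 2.88, 2.90 and 2.05 CPM, the P5 libraries 2.39, 1.38, 2.84 and 2.32 CPM, and the P7 libraries 6.49, 6.79, 6.15 and 4.97 CPM. All 4 P7 libraries lay above all 12 others. Il11 rose 5.06-fold from P1 to P7 (log2 2.34, SE 0.27, adjusted p = 3.7e-07) and 2.07-fold from P1 to P3 (log2 1.05, SE 0.28, adjusted p = 0.0081), the latter lost without P1 replicate 1 (log2 0.81) or P3 replicate 2 or 3 (log2 0.97 each). The rest of the rise came after P5. Il11 was the only member called from P3 to P7 (log2 1.29, SE 0.25, adjusted p = 2.6e-04), where 11.9% of all genes were called, and with Il6 it made 2 called members from P5 to P7 (Il11 log2 1.44, Il6 log2 1.18), where 3.47% of all genes were called. The Il6 call from P5 to P7 was lost without P5 replicate 4 (log2 0.94) or P7 replicate 1 (adjusted p = 0.0655).

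Lif, the third cytokine of this family among the members, did not follow Il6 and Il11. Its libraries had 16.03, 19.4, 19.2 and 14.3 CPM at P1 and 15.3, 25.9, 18.4 and 21.9 CPM at P7. These values overlapped, and the fitted difference of 0.24 on the log2 scale (95% interval -0.06 to 0.54, adjusted p = 0.16) did not pass. The lowest mean of Lif was that of P5, at 14.3 ± 1.59 CPM (SD, n = 4).

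The shared receptor chain Il6st was highest at the middle passages. It had 374 ± 24.0 CPM at P1, 478 ± 16 CPM at P3, 451 ± 39.7 CPM at P5 and 366 ± 43.7 CPM at P7 (SD, n = 4 each). All P3 and P5 libraries were above all P1 libraries, and the P7 range of 303 to 398 CPM covered that of P1. The P3 and P1 means differed by 0.35 on the log2 scale (SE 0.09, adjusted p = 0.0052), which is under the 2-fold threshold. Osmr, the partner chain for oncostatin M, went from 169 ± 21.5 CPM at P1 to 254 ± 26.8 CPM at P3 and was 238 ± 23.5 CPM at P7. Its P7 libraries were all above those of P1 (log2 0.50, SE 0.14, adjusted p = 0.0046), again by less than 2-fold.

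Il33, a nuclear alarmin of stromal and epithelial cells, showed the reverse course. Its P1 libraries had 29.0, 18.4, 22.5 and 18.9 CPM, its P3 libraries 13.3, 14.5, 13.7 and 5.56 CPM, its P5 libraries 12.4, 14.5, 9.05 and 8.94 CPM, and its P7 libraries 7.86, 4.86, 4.92 and 8.76 CPM. All P1 libraries were above all later ones. Il33 fell by 1.75 on the log2 scale from P1 to P7 (SE 0.26, 3.36-fold, adjusted p = 1.0e-05). The difference between P7 and P3, -0.84 (SE 0.27, adjusted p = 0.013), was under 2-fold and came to -1.06, past the threshold, without P3 replicate 4, the lowest of its group. Tslp, an alarmin of epithelial barriers, was close to the limit of counting, with 15 to 33 counts per library at P1 (0.928 to 2.26 CPM) and 6 to 13 at P7 (0.461 to 0.965 CPM). It fell by 1.61 from P1 to P5 (SE 0.44, adjusted p = 0.0051) and by 1.16 from P1 to P7 (SE 0.43, adjusted p = 0.026). The P1 to P7 call of Tslp was lost when any of 4 libraries was left out (adjusted p up to 0.096), and the range at P7 overlapped with that of P1 by 1 library. From P1 to P5, where 15.0% of all genes were called, 2 of 10 members were called, Tslp lower and Il6 higher (log2 1.03, SE 0.37, adjusted p = 0.026), and Il6 was not called without P5 replicate 2 (log2 0.67), P1 replicate 4 (log2 0.79) or P1 replicate 1 (log2 0.95). Il33 was 1.98-fold lower at P5 than at P1 and passed the threshold without P5 replicate 2 (log2 -1.13) and in 3 other omissions. The summed macrophage, keratinocyte, endothelial and adipocyte markers fell over the same interval, as given above, and their part in the falls of Il33 and Tslp was not tested. From P3 to P7, the keratinocyte markers went from 1.78 to 4.40 CPM up to 4.73 to 7.87 CPM, the macrophage markers from 44.9 to 62.1 CPM to 33.9 to 52.2 CPM and the endothelial markers from 40.4 to 45.0 CPM to 10.8 to 13.9 CPM. The macrophage sum includes Csf1r, which rose over this interval while no other macrophage marker was called higher, so the sum understates the fall of the others.

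The receptors Il1rl1 and Il1r1 parted. Il1rl1, the IL-33 receptor, had 762, 754, 871 and 542 CPM at P1, 499, 498, 492 and 464 CPM at P3, 676, 533, 525 and 399 CPM at P5, and 1007, 950, 971 and 897 CPM at P7. The P7 libraries were above all others and the P3 libraries were the most alike. The differences were each under 2-fold: P3 against P1 came to -0.58 (SE 0.13, adjusted p = 0.0023) and P7 against P3 to 0.97 (SE 0.13, adjusted p = 9.1e-06) on the log2 scale. The gene makes a membrane receptor and a soluble decoy, and counts per gene do not separate them. Il1r1 was 152 ± 49.6 CPM at P1 and 109 ± 20.4 CPM at P7, with overlapping libraries. Csf1, the growth factor of macrophages, was the most abundant transcript of the 10 per length, at 1646 ± 219 CPM at P1, 1532 ± 90.0 CPM at P3, 1522 ± 85.8 CPM at P5 and 2126 ± 283 CPM at P7, and its P7 difference from P3 was 0.47 (SE 0.10, adjusted p = 8.0e-04).

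On the scale of CPM per kb of exon, which allows genes to be compared, the P1 levels ran from Csf1 (372 ± 49.5) through Il1rl1 (103 ± 19.4), Il6st (68.6 ± 4.40), Osmr (34.9 ± 4.45), Il1r1 (30.2 ± 9.85), Il33 (8.14 ± 1.80), Lif (3.97 ± 0.573), Il6 (2.26 ± 1.16) and Tslp (1.16 ± 0.416) to Il11 (0.598 ± 0.243). Osmr and Il1r1 lay within their SDs of each other at P1. At P7, Il6 (10.4 ± 3.14) had passed Lif (4.69 ± 1.05), Il11 (3.04 ± 0.396) had passed Il33 (2.42 ± 0.737) by less than their SDs, and Tslp (0.512 ± 0.173) was last. The 4 receptor genes and Csf1 had higher means than the other 5 members at both passages.

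Other genes of the same pathways were read from the same fit. Of 10 listed IL-6 family ligands, 6 could be tested. From P1 to P7, 3 of the 6 were called, Il6 and Il11 among them and none lower, where 21.4% of all genes were called. Among 7 receptors of the family, Il27ra rose (log2 1.19), while Il6ra, the alpha receptor of IL-6, fell by 1.39 and Lifr, the LIF receptor, by 1.13. None of 8 JAK-STAT genes was called by edgeR or DESeq2 (5 had an unadjusted p under 0.05, as did 65.8% of all genes tested, and the median of the 8 was -0.09, against -0.01 over all genes). Of 6 STAT3 feedback and target genes, Cish rose (log2 1.13) and Pim1, a kinase induced by STATs, fell by 1.61. Of 8 IL-1 family ligands and alarmins, 5 were tested: Il18 rose (log2 1.34, from 0.337 to 0.858 CPM), and Il33, Tslp, Hmgb1 (-1.29) and Il1rn, the natural IL-1 receptor antagonist (-2.69), fell. Among the receptors for IL-1 family cytokines and TSLP, Il18rap rose (log2 2.91, SE 0.28) and Il7r, a chain shared by IL-7 and TSLP receptors and typical of lymphoid cells, went from 7.20 to 0.0192 CPM. None of 8 genes of IL-1 receptor signaling was called by edgeR or DESeq2, with 7 at an unadjusted p under 0.05 beside the same 65.8%. Il34, the second ligand of the CSF-1 receptor, rose (log2 1.43, SE 0.23), and Csf2rb, a receptor chain of myeloid cells, fell from 5.81 to 0.0761 CPM.

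Across the 16 passage libraries, Il6 and Il11 tracked each other (Pearson r = 0.787, Spearman rho = 0.738 on log2 CPM) and Il11 and Il33 ran opposite (r = -0.817, rho = -0.765). These are descriptions over libraries that share the passage order. Among 9425 genes with an average log2 CPM of at least 3, those whose course was most like Il6 were Dhx40 (r = 0.931), Sec23a (0.926) and Alg11 (0.924). For Il11 they were the immediate early gene Nr4a1 (r = 0.920), the growth factor gene Ereg (0.915) and Ywhag (0.914), and for Il33 C2cd5 (0.912), the chemokine gene Cxcl12 (0.897) and Cyp7b1 (0.894). Il1rl1 was most like Pla1a (0.896), Stc1 (0.892) and Tmem45a (0.882), Csf1 like Gdf6 (0.867), the gp130 ligand gene Clcf1 (0.851) and Shb (0.847), and Lif like Angptl4 (0.823), Hk2 (0.820) and Tgm2 (0.776). For the remaining members, Il6st was most like Atf7ip (0.964), Osmr like Ufsp2 (0.946), Il1r1 like Pde1a (0.955) and Tslp like Tmem181b-ps (0.867).

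Promoter chromatin was read from the peaks of each ATAC-seq sample. The strength of a promoter was the percentile of its strongest peak among all peak entries of that sample, ranked by MACS2 fold enrichment. That peak had to overlap the 1000 bases on either side of the start site, and the strength was 0 where there was none. A peak with several summits has an entry for each. The peak lists hold no read counts, so the depth behind them is unknown. The 10 members have 16 annotated start sites. Of these, 13 had a peak in at least 3 of the 13 samples and were tested, and 11 had a peak in every sample. No sample had a peak at the first start sites of Lif, Il11 and Il1rl1. The first start site of Il1rl1 is the one known from mast and other blood cells, and the second, open in all 13 samples (61.2 to 81.4), is the one known from fibroblasts.

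**Figure D2:**
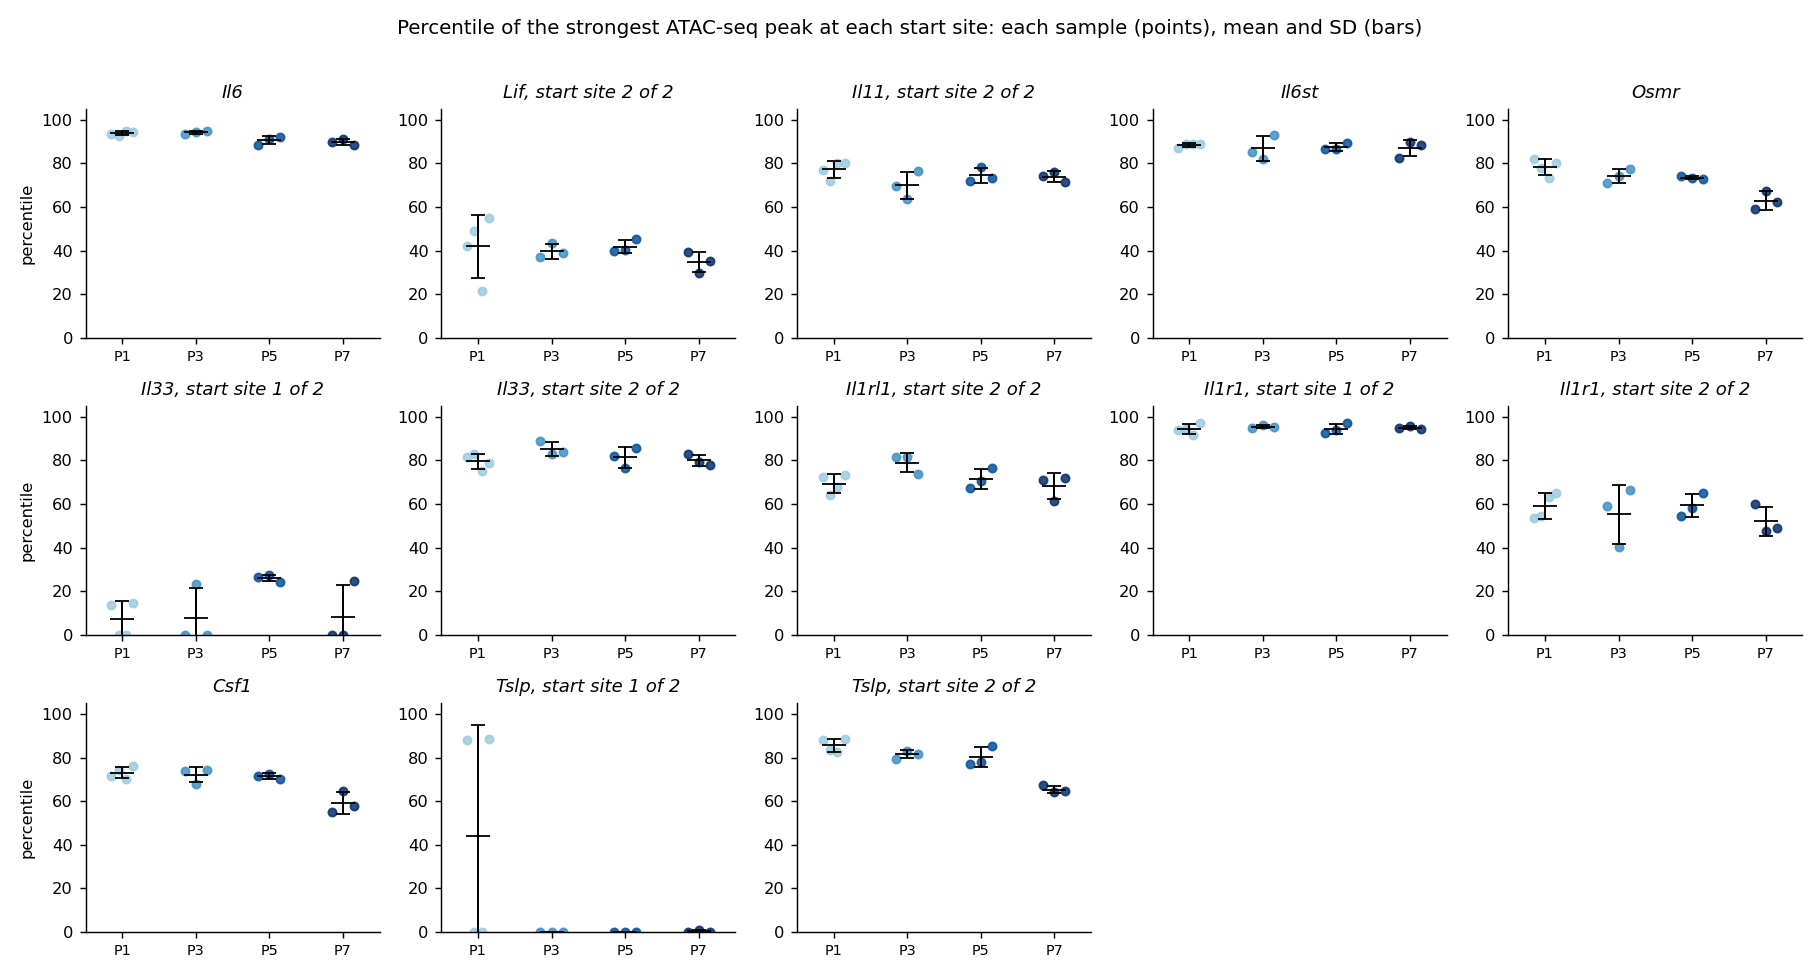
Percentile of the strongest ATAC-seq peak (0 to 100, linear axis) within 1000 bases of the 13 tested start sites in each sample by passage; start sites are numbered in the direction of transcription. Points are samples and bars the mean with its SD; Il6 stays between 88.61 and 94.96 throughout, and Csf1, Osmr and the second Tslp start site are lowest at P7.

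The Il6 promoter was already among the strongest peaks of every sample at P1. Its percentile was 93.4, 92.7, 94.7 and 94.3 in the P1 samples, 93.6, 94.6 and 94.96 at P3, 88.7, 91.3 and 92.0 at P5, and 89.8, 91.1 and 88.6 at P7. The peak summit lay 198 to 228 bases before the start site, and all 250 bases shown above were inside a peak in all 13 samples. Il6 thus had an open promoter at P1, where its RNA was lowest, and a slightly lower rank at P7, where its RNA was highest. The difference of P7 from P1 was -3.96 percentile points (SE 0.96, adjusted p = 0.0094 by limma over 27936 start sites), beside a median of -2.53 over all start sites tested. On the scale of fold enrichment itself, the mean was 12.7 at P1 and 13.5 at P7.

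By this measure, 4 of the 13 start sites of members were called between P7 and P1 (adjusted p under 0.05), all lower, where 29.2% of all start sites were called. Of all called start sites 20.3% were higher on this scale, whereas 82.3% were higher on the scale of log2 fold enrichment, so the sign of a small shift depends on the scale. Besides Il6, the called sites were Osmr (from 78.4 ± 3.70 to 62.9 ± 4.32, SD), Csf1 (from 73.1 ± 2.61 to 59.1 ± 4.89) and the second start site of Tslp. The Tslp site had 88.1, 83.4, 82.4 and 88.3 at P1 and 67.2, 64.2 and 64.5 at P7, a difference of -20.3 points (SE 2.64, adjusted p = 3.5e-04), and it was also called lower on the scale of log2 fold enrichment. Osmr and Csf1 did not pass on that scale (-0.19 and -0.12 on the log2 scale, adjusted p = 0.25 and 0.52), while the first start site of Il1r1 was called higher there (0.34, adjusted p = 0.029). Csf1 and Osmr RNA was higher at P7 than at P1, each by less than 2-fold.

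Against P3, 4 start sites were called lower at P7 (Il6, Osmr, Csf1 and the second of Tslp), where 13.6% of all were called (39.3% of these higher, 95.3% on the scale of log2 fold enrichment and 10.6% with the same number of top peaks in every sample), and against P5 only that of Tslp (-14.9, SE 2.82, adjusted p = 0.025), where 1.36% were (28.6% of these higher, 46.2% by log2 fold enrichment and 11% with the same number of top peaks). The Osmr call against P3 was lost when any of 12 samples was left out (adjusted p up to 0.14), that of Csf1 without P3 replicate 1 or 3 or P7 replicate 1 or 3, and that of Tslp against P5 without P5 replicate 2 or 3 or P7 replicate 2 or 3. No start site of a member was called at P3 or P5 against P1 by limma, where 5.85% and 9.23% of all start sites were called. At an unadjusted p under 0.05, 2 and 3 of the 13 were counted in these comparisons, where 22.0% and 27.5% of all start sites had such a p. Higher start sites made up 16.5% of all calls at P3 (45.9% with the same number of top peaks) and 28.7% at P5 (90.5% by log2 fold enrichment). The Il33 start sites were not called, while its RNA fell. The second had 81.6, 82.8, 75.2 and 78.7 at P1 and 83.0, 79.4 and 77.9 at P7 (difference 0.54, 95% interval -5.30 to 6.39). The first Il33 start site had a weak peak in 7 of 13 samples, at most 27.3. For Il11, the strongest peak near its second start site had its summit 702 to 1121 bases inside the gene, at 77.4 ± 3.86 at P1 and 73.9 ± 2.48 at P7 (difference -3.47, 95% interval -11.1 to 4.14). A separate, weaker peak over the 250 bases shown above, with their AP-1 letters, was called in 2 of 4 P1 samples, 0 of 3 P3 samples and all 3 samples each of P5 and P7. In P3 replicate 2 the stronger peak itself reached over 129 of these bases. The samples also differ in how many distinct peaks were listed: 168982 to 186562 at P1, 142384 to 155681 at P3 and 182402 to 231558 at P5 and P7. The entries that were ranked, with each summit apart, numbered 230188 to 251580 at P1, 203912 to 210079 at P3 and 222803 to 265932 at P5 and P7. Whether a weak peak is listed can follow these numbers, and their part in this count was not tested. Il1r1 (first start site, 91.7 to 97.3) and Il6st (82.1 to 93.2) had strong promoter peaks in all 13 samples, and Lif (21.6 to 54.8) the weakest of those open in every sample.

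**Figure D3:**
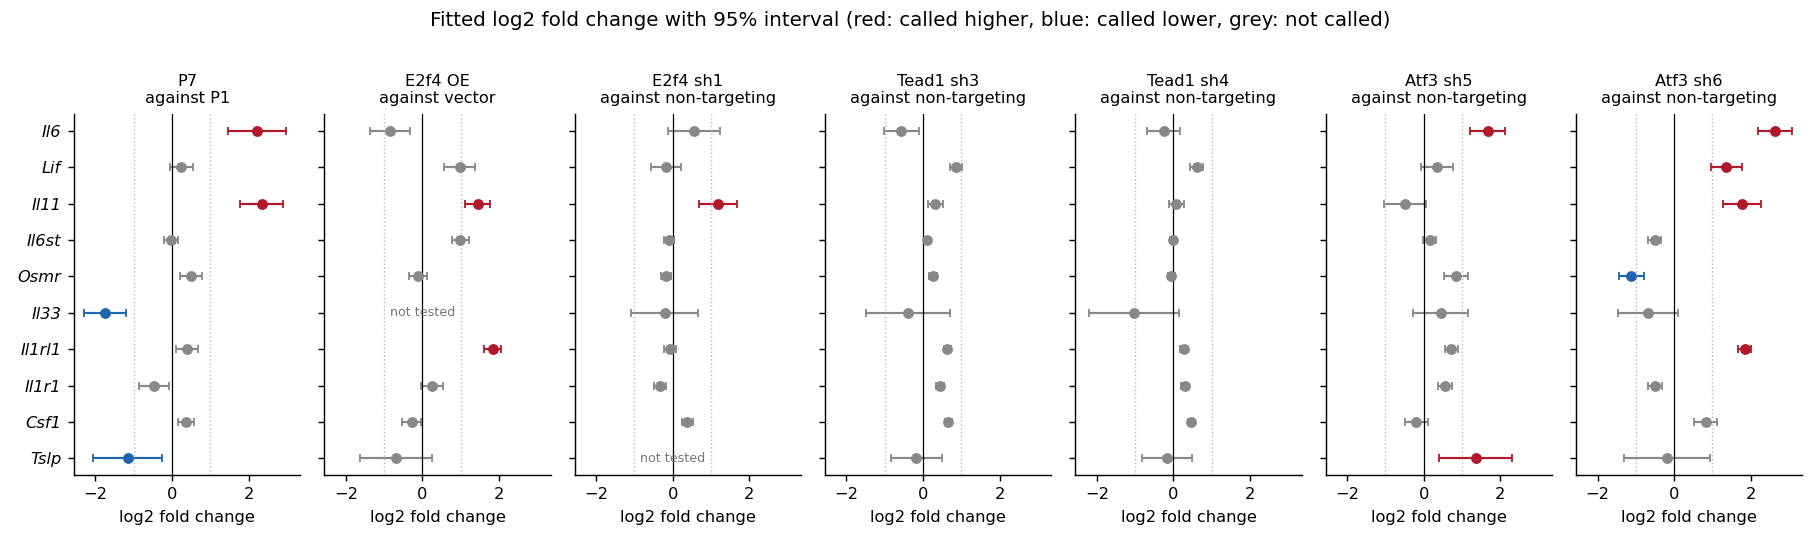
Fitted log2 fold change of the 10 members (edgeR) in P7 against P1 and in each manipulation against its own control. Points are estimates and bars the 95% interval; red marks calls higher, blue calls lower and grey genes not called, and dotted lines mark a 2-fold change.

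E2f4 is known as a repressor of cell cycle genes, while the paper classes it as an activator of its downstream genes. The inducible vector raised E2f4 from 35.5 and 47.5 CPM in the EGFP control libraries to 1118 and 1180 CPM (log2 4.79, SE 0.15). In these pre-senescent cells 2 of the 9 members tested were called, Il11 and Il1rl1, both higher, where 18.1% of all genes were called. Il1rl1 rose from 213 and 209 CPM to 726 and 774 CPM (log2 1.83, SE 0.10, adjusted p = 2.3e-06), and Il11 from 9.52 and 11.01 CPM to 28.1 and 27.3 CPM (log2 1.44, SE 0.14, adjusted p = 2.6e-05). The groups did not overlap for either gene. Il6st, at 482 and 422 CPM in the control and 892.5 and 906 CPM with E2f4, and Lif, at 12.2 and 17.5 CPM against 26.1 and 31.9 CPM, were 1.99-fold and 1.96-fold higher and fell just short of the threshold (adjusted p = 3.5e-05 and 0.0010). Il6 had 7.68 and 6.22 CPM in the control and 4.65 and 3.01 CPM with E2f4, a difference of -0.85 (SE 0.24, adjusted p = 0.011) that was also under 2-fold. Without E2f4 replicate 1, the differences of Il6 (log2 -1.21), Lif (log2 1.11) and Il6st passed the threshold. Il33 was left out of the test, with 15 and 0 counts in the control and 3 and 3 with E2f4.

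Of the STAT3 feedback and target genes, 4 of 6 were called higher with E2f4 overexpression, where 18.1% of all genes were called. These were Bcl3 (log2 2.43), Socs3 (2.25), Pim1 (1.95) and Socs1 (1.11). SOCS proteins are feedback inhibitors of JAK-STAT signaling and Socs3 binds gp130. The median of these 6 genes was 1.53 on the log2 scale, against 0.01 over all genes tested. None of the 8 JAK-STAT genes was called by edgeR or DESeq2, with 4 at an unadjusted p under 0.05, beside 62.5% of all genes tested. Csf3 was higher (log2 1.43) and Il18 lower (log2 -1.40) by edgeR, both at levels under 2 CPM, and DESeq2 called neither (adjusted p = 0.135 and 0.0744). The summed muscle markers were 66.8 to 76.3 CPM in the control and 22.4 to 23.8 CPM with E2f4. Of these, Acta1 alone was called, and the defining markers Myod1, Myog, Myh3 and Pax7 were at 0 in both groups.

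Knockdown of E2f4 with sh1 lowered its own RNA from 59.6, 60.8 and 59.6 CPM to 21.6, 20.4 and 21.8 CPM (log2 -1.50, SE 0.09). In these proliferating cells Il11 was the 1 member called of 9 tested, where 1.67% of all genes were called. Il11 rose from 6.51, 3.35 and 3.68 CPM to 9.28, 10.4 and 10.9 CPM (log2 1.17, SE 0.23, adjusted p = 0.0029), with no overlap. Il11 was therefore higher both with more E2f4 and with less, in cells of different passages against different controls. Csf1 had 918, 864 and 921 CPM in the control and 1182, 1059 and 1276 CPM with sh1 (log2 0.38, SE 0.07, adjusted p = 0.0015), under 2-fold. Il6 at 3.59, 1.38 and 3.00 CPM against 3.54, 3.72 and 4.49 CPM did not pass (log2 0.55, 95% interval -0.13 to 1.24). Il1rl1 differed by -0.08 with sh1 (95% interval -0.24 to 0.08). Csf1r, the CSF-1 receptor of macrophages, rose (4.38 to 10.2 CPM, log2 1.22). The summed macrophage markers, which include Csf1r, were 5.71 to 11.8 CPM in the control and 14.3 to 20.1 CPM with sh1, and the summed fibroblast markers 30900 to 31900 CPM and 23800 to 26200 CPM. The part of these markers in the differences was not tested. Tslp was left out of the test, with 17 counts in the 3 control libraries together and 10 with sh1.

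**Figure D4:**
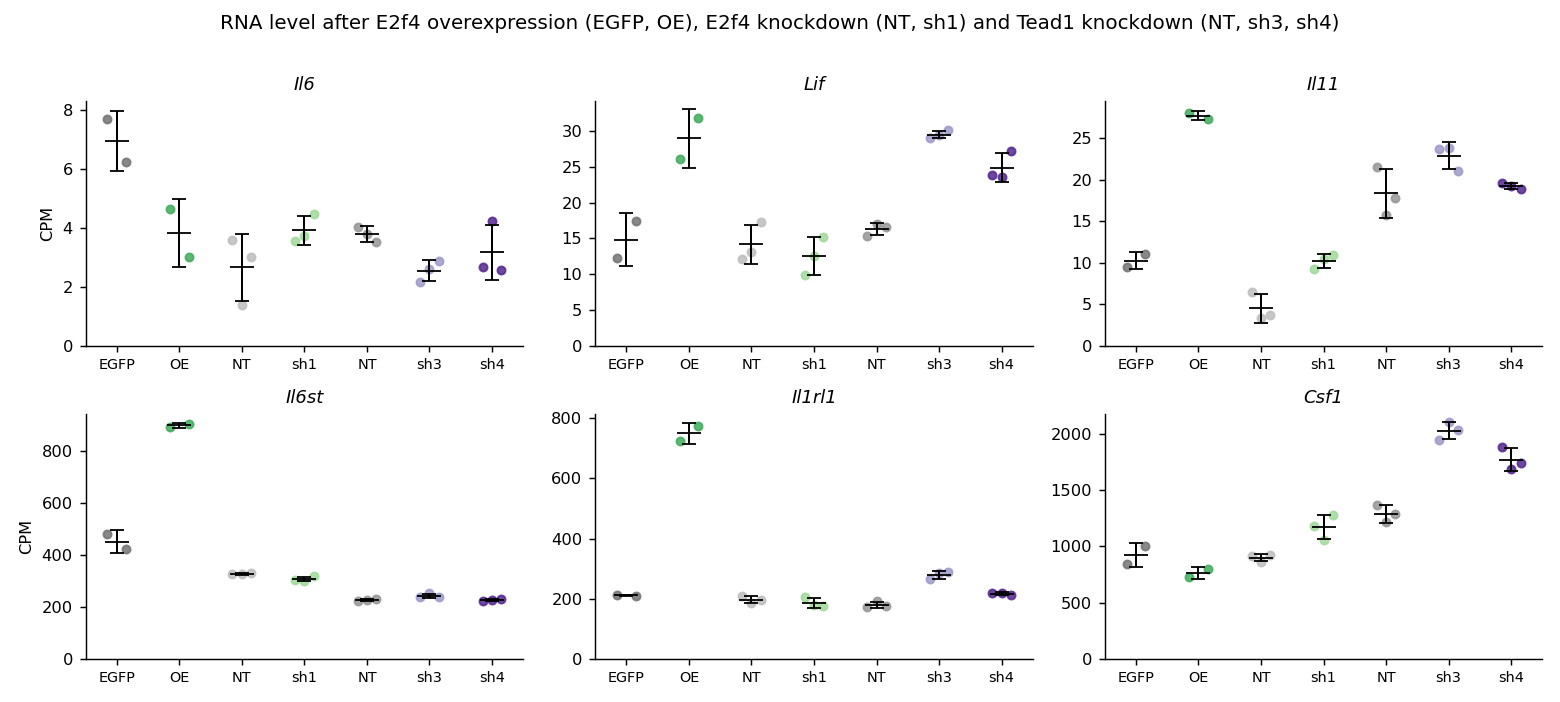
RNA level (CPM, linear axes from 0) of 6 members in each library of the E2f4 overexpression (EGFP, OE), E2f4 knockdown (NT, sh1) and Tead1 knockdown (NT, sh3, sh4) experiments. Points are libraries and bars the mean with its SD; Il11 and Il1rl1 stand far above EGFP with E2f4 overexpression, and Lif and Csf1 are above NT with both Tead1 hairpins.

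Tead1, a DNA-binding partner of the Hippo pathway coactivators, was lowered from 572, 508 and 545 CPM to 268, 284 and 285 CPM by sh3 and to 315, 313 and 320 CPM by sh4 (log2 -0.96 and -0.78). Neither hairpin led to a called member by edgeR or DESeq2, where 2.71% of all genes were called with sh3 and 1.53% with sh4. Without the 2-fold threshold, 8 of 10 members differed with sh3 and 4 with sh4 at an adjusted p under 0.05, as did 35.4% and 29.1% of all genes tested. The members with an unadjusted p under 0.05 were as many, where 43.2% and 38.1% of all genes had one. All 4 of sh4 were higher with both hairpins. The target sequences that the paper lists for sh3 and sh4 overlap almost fully, so these are not independent hairpins. Lif had 15.4, 17.0 and 16.7 CPM in the control, 29.0, 29.5 and 30.1 CPM with sh3 and 23.9, 23.6 and 27.2 CPM with sh4 (log2 0.85, SE 0.08, and 0.61, SE 0.08). Csf1 had 1369, 1214 and 1286 CPM in the control, 1952, 2107 and 2037 CPM with sh3 and 1889, 1689 and 1743 CPM with sh4 (log2 0.66 and 0.46, SE 0.04 each). Both groups were above the control without overlap. Il1rl1 was higher by 0.63 with sh3 and 0.27 with sh4, and Il1r1 by 0.43 and 0.29 (adjusted p at most 2.6e-05 for these 4 values). Il6, at 4.05, 3.80 and 3.52 CPM in the control, was 2.17, 2.59 and 2.89 CPM with sh3 (log2 -0.57, adjusted p = 0.045) and 2.68, 4.24 and 2.59 CPM with sh4 (log2 -0.26, adjusted p = 0.40).

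The hairpins were also compared with each other, where 0 of 10 members (also 0 by DESeq2) and 0.269% of all genes were called by edgeR. At an unadjusted p under 0.05, 7 of the 10 members were counted, where 20.5% of all genes had such a p. Il1rl1 and Osmr were lower with sh4 than with sh3, by 0.37 and 0.31 on the log2 scale, under 2-fold (adjusted p = 3.0e-06 and 4.5e-05). Among the pathway lists, Ctf1, a gp130 cytokine gene, fell with both hairpins (log2 -1.33 and -1.09), and Il27ra rose with both (2.68 and 2.27). Il6ra rose with sh3 (log2 1.01, from 5.97 to 11.98 CPM) and was 0.93 higher with sh4, under 2-fold. The summed muscle markers were 98.1 to 99.5 CPM in the control, 64.5 to 74.8 CPM with sh3 and 72.7 to 83.6 CPM with sh4. Only 2 of the 7 muscle markers could be tested, and Myog and Myod1 were at 0 in every group of this experiment.

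Atf3, an AP-1 family member of the stress response, was low in this experiment. It had 3.31, 2.85 and 2.77 CPM in the control, 1.46, 2.10 and 0.451 CPM with sh5 and 1.51, 1.56 and 2.09 CPM with sh6. No library overlapped with the control, and sh5 passed the test (log2 -1.14, SE 0.39, adjusted p = 0.045) while sh6 did not (log2 -0.79, SE 0.39, adjusted p = 0.11). Among the sh5 libraries, replicate 3 stood apart: its counts differed from those of replicates 1 and 2 by a chi-square of 55.9 and 59.9 per degree of freedom, against 3.20 between replicates 1 and 2. Without it Atf3 differed by -0.71 with sh5 (adjusted p = 0.0393), under 2-fold, and the members called with sh5 were still Il6 (log2 1.68) and Tslp (log2 1.52). The sh6 libraries stood apart in their markers. Fibroblast markers summed to 35600 to 37400 CPM in the control, 21500 to 34200 CPM with sh5 and 13600 to 14600 CPM with sh6, and muscle markers to 37.6 to 39.1, 13.9 to 17.8 and 196 to 214 CPM. Only 3 of the 7 muscle markers could be tested here, and Myog and Pax7 were at 0 with sh6.

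**Figure D5:**
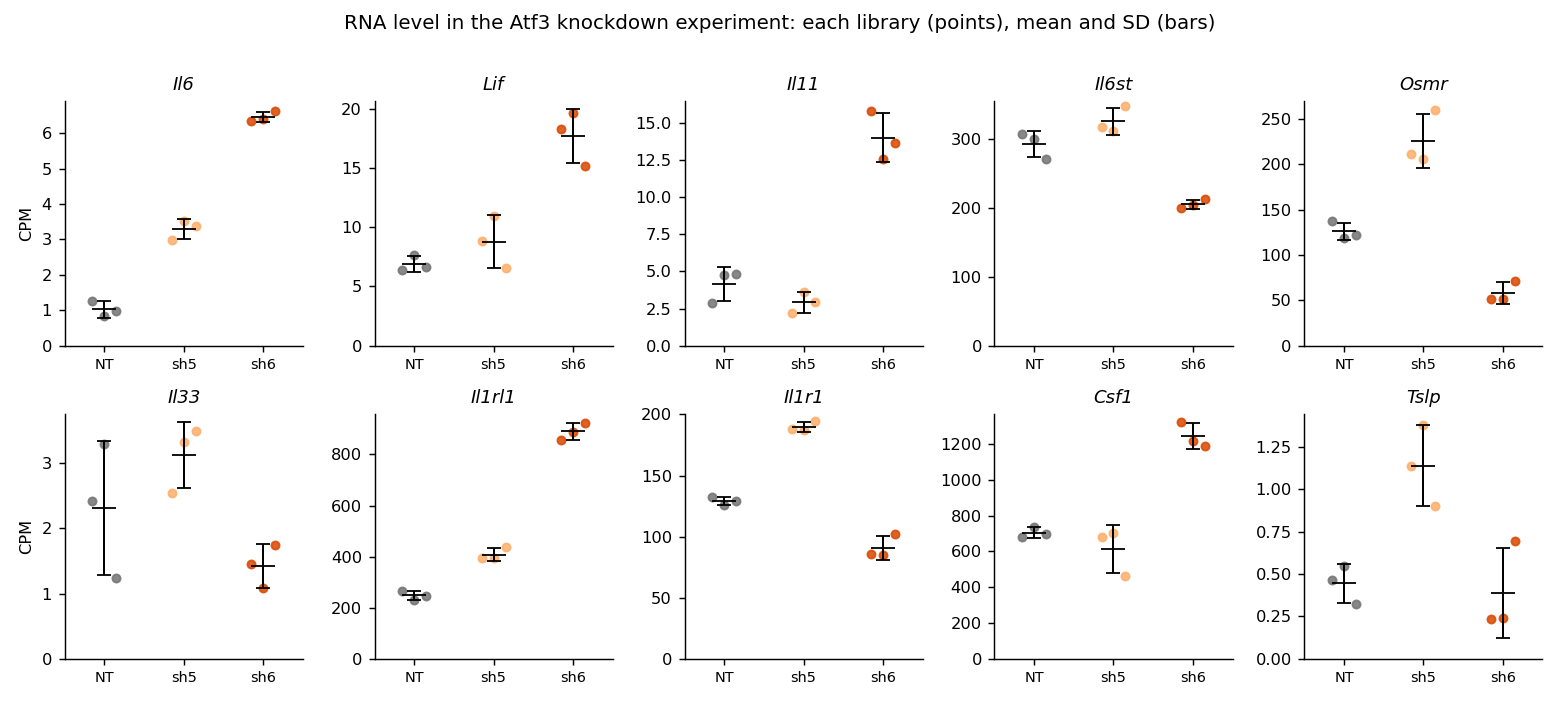
RNA level (CPM, linear axes from 0) of each member in the 3 libraries each of the non-targeting hairpin (NT), sh5 and sh6 of the Atf3 knockdown experiment. Points are libraries and bars the mean with its SD; Il6 is above NT with both hairpins, while Osmr, Il1r1 and Il6st lie above NT with sh5 and below it with sh6.

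Il6 rose with both hairpins. It had 1.27, 0.823 and 0.97 CPM in the control, 2.98, 3.53 and 3.38 CPM with sh5 and 6.33, 6.41 and 6.62 CPM with sh6. The 3 groups did not overlap, and the fold changes were 3.18 with sh5 (log2 1.67, SE 0.20, adjusted p = 5.1e-04) and 6.23 with sh6 (log2 2.64, SE 0.20, adjusted p = 2.8e-06). With sh5, Tslp rose as well, from 7 to 11 counts per library to 16 to 27 (log2 1.36, SE 0.43, adjusted p = 0.033), so that 2 of 10 members were called, where 5.20% of all genes were called. The Tslp call was lost when any of 5 of the libraries was left out (adjusted p up to 0.12).

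With sh6, 5 of 10 members were called, where 15.7% of all genes were called. Besides Il6, Il1rl1 rose from 267, 230 and 248 CPM to 857, 889 and 924 CPM (log2 1.84, SE 0.08, adjusted p = 1.0e-07), Il11 from 2.84, 4.77 and 4.80 CPM to 15.8, 12.6 and 13.7 CPM (log2 1.77, SE 0.23, adjusted p = 1.0e-04), and Lif from 6.40, 7.63 and 6.65 CPM to 18.3, 19.7 and 15.2 CPM (log2 1.36, SE 0.19, adjusted p = 1.6e-04). Osmr fell from 137, 118.5 and 122.5 CPM to 51.2, 51.6 and 71.8 CPM (log2 -1.11, SE 0.14, adjusted p = 1.0e-04). All sh6 libraries lay outside the range of the control for these 5 genes.

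The 2 Atf3 hairpins differed from each other in 8 of 10 members, where 15.8% of all genes were called. Il11 (log2 2.26), Il1rl1 (1.13), Csf1 (1.02) and Lif (1.01) were higher with sh6, and Osmr (-1.96), Tslp (-1.53), Il33 (-1.13) and Il1r1 (-1.07) lower. Osmr had 212, 206 and 260 CPM with sh5, above the control (log2 0.84, SE 0.14, adjusted p = 0.0021), so that it lay on opposite sides of the control with the hairpins. Il1r1 did the same, with 188, 187 and 195 CPM with sh5, 133, 126 and 129 CPM in the control and 85.5, 84.6 and 102 CPM with sh6. Il6 and Il6st were not called between the hairpins (log2 0.97 and -0.66, adjusted p = 0.0012 and 4.7e-05). Without sh5 replicate 3, the calls of Csf1 (log2 0.83) and Lif (log2 0.82) were lost, without sh6 replicate 1 those of Csf1, Lif, Il33 and Tslp, without sh6 replicate 2 those of Lif, Il33 and Tslp, and without sh5 replicate 2 that of Tslp. The marker differences of the sh6 libraries stand beside these values, and their part in them was not tested.

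In the pathway lists, sh5 was accompanied by a fall of Cntfr (log2 -2.09), Socs1 (-1.17), Il27ra (-1.46), Il34 (-1.61) and Crlf2, the TSLP receptor (-1.02), and a rise of Il18rap (1.48). Without sh5 replicate 3, Socs1 (-0.72) and Crlf2 (-0.60) were no longer called, and DESeq2 did not call Crlf2 (adjusted p = 0.0764). With sh6, Irak2, a kinase of IL-1 receptor signaling, rose (log2 1.39), as did Il1rap (1.09), the chain that IL-1 and IL-33 receptors share. Ctf1 (-1.67), Il1rn (-1.64), Csf1r (-1.31), Il18 (-2.84), Il1rl2 (-1.34) and Il34 (-2.83) fell.

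Il33 had its highest levels in the passage series. Its mean was 22.2 CPM at P1 and 6.60 CPM at P7, and in the manipulation experiments it ranged from 0.109 to 3.50 CPM over libraries with at least 1 count, with 1 E2f4 control library at 0. These experiments differ in cells, vectors and passages, so their levels are set side by side without a test.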

How the data were processed

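The authors deposited raw read counts per gene for 44 RNA-seq libraries (reads trimmed with Trimmomatic 0.39, aligned to mm10 with HISAT2 2.2.1 and counted without strand by HTSeq 0.12.4) and a peak list for each of 13 ATAC-seq samples (Bowtie2 2.3.5.1, MACS2), in which the deposited fold enrichment is a ratio of signal over background and each peak also has a −log10 p-value. Methylation samples are not analysed here. Rows that name no gene (7.5% to 16.8% of the reads in the 28 files that have them) were left out.

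Each experiment was fitted on its own over all genes kept by filterByExpr with edgeR 4.0.16 (TMM, quasi-likelihood test, Benjamini-Hochberg), and promoter percentiles with limma 3.58.1. A gene was called at an adjusted p under 0.05 and a fold over 2, a start site at an adjusted p under 0.05. Both fits were tested on simulated data. Intervals are 95%. CPM per kb used the union of exons. No pair of replicates agreed within counting noise. Counts were not split by strand or isoform. Other annotated genes overlap Il6, Il11, Il33, Csf1 and Tslp, but share no exon bases with them. Named were the members, the targeted genes, the called gene with the largest rise and fall of each pathway list and the 3 closest courses per member, and other pathway genes were named after their values were seen. The members, lists and tests were chosen with earlier results of these data known. The closing section gives the alternatives tried. Results for some items are not reported here.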

Additional observations from a re-analysis of the deposited data

Results flagged for a closer look

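In 3 of 53 groups of 4 libraries or samples, the highest or lowest value stood apart by Dixon's criterion, and chance alone gives about 1 in 20 such groups. Osmr in P7 replicate 3 had 273.1 CPM, against 222.8 to 231.1 CPM in the other libraries of its group. Il33 in P3 replicate 4 had 5.559 CPM, against 13.34 to 14.54 CPM, and Il1r1 in P5 replicate 4 had 88.04 CPM, against 114.6 to 119.9 CPM.

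Hairpins to the same gene differed in 14 of the 20 member comparisons tested (adjusted p under 0.05 by edgeR, with no fold threshold), 4 of 10 for Tead1 and 10 of 10 for Atf3, where 7.37% and 52.6% of all genes tested passed. The target sequences of the Tead1 hairpins overlap almost fully and those of the Atf3 hairpins do not, so these counts are not alike. Between Tead1 sh4 and sh3 the log2 differences were -0.37 for Il1rl1, -0.31 for Osmr, -0.25 for Lif and -0.20 for Csf1. Between Atf3 sh6 and sh5, Il11 (2.26), Il1rl1 (1.13), Csf1 (1.02), Lif (1.01) and Il6 (0.97) were higher with sh6, and Osmr (-1.96), Tslp (-1.53), Il33 (-1.13), Il1r1 (-1.07) and Il6st (-0.66) were lower.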

How the results depend on the processing

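Low counts set a limit: members with under 10 counts in some library leave the stricter filter, and peak lists without read counts give no depth for the promoters. With at least 10 counts in every library, the members called became 1 at P3 against P1, 1 at P5 against P1, 2 at P7 against P1, 0 at P7 against P3, 1 at P7 against P5, 1 with Atf3 sh5 and 5 between sh6 and sh5. At P7 against P3, DESeq2, its size factors and a fit on those 2 groups alone each called 2, and with Atf3 sh5 no filter gave 1. Among promoters, the scale of log2 fold enrichment gave 2 calls at P7 against P1, 0 against P3 and 0 against P5, ranks by −log10 p gave 1 against P3, and the same number of top peaks gave 2 against P5. The Il6 promoter reversed at P7 against P1 (0.08 by log2 fold enrichment, 0.68 percentile points by −log10 p) and against P3 (0.05 by log2 fold enrichment). The cause was not tested beyond the drop of low genes by the filter.

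Leaving out 1 library at a time gave 1 to 2 called members at P3 against P1, 1 to 4 at P5 against P1, 3 to 4 at P7 against P1, 1 to 4 at P7 against P3 and 1 to 2 at P7 against P5. It gave 2 to 5 with E2f4 overexpression (where a lone control or treated library is assumed to vary like the other group), 1 to 1 with E2f4 sh1, 0 to 0 in each of the 3 Tead1 comparisons, 1 to 2 with Atf3 sh5, 5 to 5 with sh6 and 4 to 8 between sh6 and sh5. For promoters it gave 0 to 0 at P3, 0 to 1 at P5 and 4 to 5 at P7 against P1, 2 to 4 at P7 against P3 and 0 to 1 at P7 against P5. Of the values of single members under the other settings, 717 RNA values kept their direction and their side of the threshold, 6 passed it anew and 6 lost it, and of the promoter values 359 kept both, 4 passed anew, 14 lost it and 3 reversed.

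The labels do not say what same-numbered libraries share, and they did not deviate together throughout: the correlation of their deviations was -0.262 to 0.276 over the 24 pairs of the passages and -0.073 to 0.097 over the 18 ATAC-seq pairs. With the replicate block, the members called were 2 at P7 against P3 and 1 with Atf3 sh5, and the promoters called 2 at P7 against P3 and 0 at P7 against P5.

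Over all genes, at least 10 counts in every library left 487 calls of 1207 at P3, 1086 of 2010 at P5 and 1796 of 2881 at P7 against P1, 971 of 1593 at P7 against P3, 296 of 467 at P7 against P5, 221 of 353 with Tead1 sh3, 116 of 199 with sh4 and 18 of 35 between them (17 by DESeq2). Over all start sites, the calls went from 1633 at P3 against P1 to 919 (same top number), 658 (log2 fold enrichment), 3466 (−log10 p), 775 (no filter) and 884 (replicate block), from 2578 at P5 against P1 to 4225 (−log10 p), 1445 (no filter) and 1375 (replicate block), from 3811 at P7 against P3 to 8526 (same top number), 5889 (log2 fold enrichment) and 2037 (no filter), and from 381 at P7 against P5 to 1109 (same top number), 104 (log2 fold enrichment), 709 (−log10 p), 233 (no filter) and 97 (replicate block).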

Other observations

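Csf1r, the receptor of the Csf1 product, did not follow the other macrophage markers at late passage. Its mean was 20.5 CPM at P1, 8.84 CPM at P3, 7.95 CPM at P5 and 21.8 CPM at P7, a rise from P3 to P7 of 1.30 on the log2 scale (SE 0.14, adjusted p = 2.8e-07 by edgeR). Over the same interval 5 of the 9 macrophage markers were called lower (Adgre1, C1qa, Itgam, Lyz2 and Mrc1) and none other than Csf1r was called higher. Of all genes tested, 11.9% were called there in either direction. DESeq2 did not call Lyz2 (log2 -0.996). Csf1r was named here after its values were seen.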
